A study of Mus musculus with 6 samples.

Results

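The receptors through which T cells sense interleukin-1 (IL-1), IL-18 and IL-33 were described in mouse regulatory T (Treg) cells differentiated with or without sorafenib (Sora), a multikinase inhibitor used against liver cancer. The genes were chosen by symbol: Il1r1, Il1r2, Il1rn, Il1rap, Il1rl1, Il18r1, Il18rap and Myd88. All 8 were found among the 22939 genes of the count table, and all 8 passed the filter on low counts. The study compared 3 control (ctrl-Treg) with 3 Sora-Treg libraries. Both groups began as naive CD4+ T cells of mice that carry GFP knocked into Foxp3 (background C57BL/6J). Both were stimulated through CD3 and CD28 and polarized with TGF-β1 and with antibodies against IFN-γ and IL-4, and GFP-positive cells were sorted. Sora, present from the start of culture, is the stated difference between the groups. Its concentration for these libraries and the age of the mice that gave the cells are not stated in the labels, and no cytokine of the IL-1 family is listed among the culture additions. Cells differentiated in culture are a model of induced Treg cells and were not taken from a tissue. Where nothing says that libraries came from separate cultures or animals, p-values measure only the spread between these libraries.

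Receptors of this family share an intracellular TIR domain and signal as pairs. IL-1 is bound by IL-1R1 and IL-33 by ST2 (the product of Il1rl1), and both then recruit the accessory protein encoded by Il1rap. IL-18 is bound by the product of Il18r1, which pairs with that of Il18rap. Each pair recruits the adaptor MyD88, which leads through IRAK kinases and TRAF6 to NF-κB and MAP kinases. Signaling by IL-1 is held back by a decoy receptor without a TIR domain (Il1r2) and by a soluble receptor antagonist (Il1rn). Activated Treg cells are known for the decoy receptor, and Treg cells of tissues for ST2, which also exists in a soluble form made from the same gene.

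The sequences before the annotated start sites are shown for the 4 genes whose levels differed most between the groups and, for contrast, for Il1rl1, whose levels overlapped. They are RefSeq windows on GRCm38.p6, 250 bases before to 50 bases after a start site, read 5′ to 3′ on the plus strand. The windows lie at chr2:24336610-24336909 (Il1rn, the first of its start sites), chr1:40465756-40466055 (Il18r1, the third), chr1:40515112-40515411 (Il18rap), chr16:26581455-26581754 (Il1rap) and chr1:40439379-40439678 (Il1rl1, the second). Capitals mark matches, on either strand, to 4 short motifs. The motif searched for AP-1 was TGANTCA. For STAT factors the letters were TTCNNNGAA. For GATA factors they were AGATAA. For FOXO factors they were GTAAACA.
Il1rn: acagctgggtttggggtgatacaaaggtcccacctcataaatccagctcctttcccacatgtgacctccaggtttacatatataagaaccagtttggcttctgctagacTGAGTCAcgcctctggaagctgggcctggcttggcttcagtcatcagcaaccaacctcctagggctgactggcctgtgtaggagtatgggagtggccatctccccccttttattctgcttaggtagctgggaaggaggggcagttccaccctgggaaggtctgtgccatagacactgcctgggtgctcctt
Il18r1: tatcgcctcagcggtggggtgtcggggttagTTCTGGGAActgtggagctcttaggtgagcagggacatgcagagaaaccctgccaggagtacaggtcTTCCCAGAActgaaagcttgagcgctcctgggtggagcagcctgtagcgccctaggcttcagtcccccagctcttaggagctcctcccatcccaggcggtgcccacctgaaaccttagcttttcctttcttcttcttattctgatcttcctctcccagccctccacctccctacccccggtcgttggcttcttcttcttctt
Il18rap: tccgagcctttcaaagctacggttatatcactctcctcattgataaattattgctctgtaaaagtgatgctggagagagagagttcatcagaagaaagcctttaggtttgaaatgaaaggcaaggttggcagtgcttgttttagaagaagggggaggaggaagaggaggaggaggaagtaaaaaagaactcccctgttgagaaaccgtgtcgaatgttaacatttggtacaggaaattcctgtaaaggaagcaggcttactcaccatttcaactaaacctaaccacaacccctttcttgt
Il1rap: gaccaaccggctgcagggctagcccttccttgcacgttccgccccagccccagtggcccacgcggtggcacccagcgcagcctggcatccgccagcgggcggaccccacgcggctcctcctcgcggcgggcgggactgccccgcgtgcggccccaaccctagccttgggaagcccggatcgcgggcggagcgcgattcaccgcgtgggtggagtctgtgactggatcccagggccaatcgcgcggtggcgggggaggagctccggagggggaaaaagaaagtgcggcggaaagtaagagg
Il1rl1: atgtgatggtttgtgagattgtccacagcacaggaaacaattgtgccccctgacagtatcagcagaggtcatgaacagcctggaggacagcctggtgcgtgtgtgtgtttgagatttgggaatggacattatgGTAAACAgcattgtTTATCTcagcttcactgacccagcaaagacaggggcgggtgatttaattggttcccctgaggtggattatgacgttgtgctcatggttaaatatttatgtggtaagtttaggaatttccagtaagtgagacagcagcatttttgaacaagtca

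Of 32851 promoter windows of mouse genes, 7.81% held the AP-1 letters, 8.30% the STAT letters, 11.2% the GATA letters and 3.65% the FOXO letters. These shares are per window, and a gene with several windows had more places for a match. Where a gene had several windows, the printed window was the one with the most matches. The printed Il1rn window held 1 AP-1 match, beginning at -141 from the start site. The printed Il18r1 window held 2 STAT matches, at -219 and -152. Of the several windows of Il1rn and Il18r1, those printed were the only ones with a match, and the other windows of both genes (start sites 2 and 3 of Il1rn, 1 and 2 of Il18r1) held none. Il18rap and Il1rap had a single window each, and neither held any of the 4 motifs. The printed Il1rl1 window held a FOXO match at -117 and a GATA match at -103 on the other strand, and the window of its first start site held a GATA match at -217. A STAT match was also present before Il1r2 (at -111) and before Myd88 (at -46). These matches describe letters and are not evidence of binding.

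RNA levels are given as CPM, which are counts relative to the library total, scaled between libraries with TMM factors. Total counts ranged from 30727686 to 37717324 per library. Before TMM scaling, a floor of 3 counts was worth 0.0795 to 0.0976 CPM, which covers counting error only. The Treg label was met by Foxp3, between 252 and 278 CPM in all 6 libraries, with Cd3e at 225 CPM or more and Cd4 at 678 CPM or more throughout. The 8 T and Treg cell genes summed to 3973 to 4028 CPM in ctrl-Treg and 6888 to 7006 CPM in Sora-Treg cells. Most of that rise was Il2ra (means of 1934 and 3795 CPM) and Ctla4 (383 and 1108 CPM). Cd3g (140 and 335 CPM) and Cd3e (230 and 348 CPM) rose less. Means were closer for Foxp3 (259 and 272 CPM), Cd4 (679 and 709 CPM), Cd5 (228 and 251 CPM) and Ikzf2 (147 and 149 CPM). Of the markers of other cells, 12 macrophage and monocyte genes summed to 99.4, 99.2 and 26.6 CPM in ctrl-Treg replicates 1 to 3. In Sora-Treg cells the sum was 31.4 to 54.3 CPM, so ctrl-Treg replicates 1 and 2 stood apart. Those 2 libraries were led by Lyz2 (47.5 and 47.9 CPM) and Adgre1 (23.8 and 22.8 CPM). Of 11 tested genes of this list, 6 were lower and 1 higher by adjusted p. The higher gene was Ccr2, from 1.62 ± 0.421 to 9.26 ± 0.151 CPM (SD, n = 3). Cd68 stood at 8.48 ± 1.65 and 9.78 ± 0.420 CPM. The neutrophil markers S100a8 and S100a9 had at most 3 counts, and the 7 neutrophil genes summed to at most 0.711 CPM in ctrl-Treg and at most 3.12 CPM in Sora-Treg cells, mostly Cxcr2. The 5 mast cell and basophil genes stayed, summed, at or below 0.356 CPM. B cell genes summed to 9.71 to 10.7 CPM in ctrl-Treg and 6.09 to 7.68 CPM in Sora-Treg cells, CD8 genes to 13.2 to 15.1 and 12.6 to 13.8 CPM. Dendritic cell genes went from 15.3 to 17.2 CPM to 4.28 to 4.86 CPM, almost all of it Zbtb46.

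Differences were tested with edgeR across 13463 genes. No member rose or fell by more than 2-fold with an adjusted p under 0.05, against 6.3% of all tested genes that were called higher and 4.97% called lower by that rule. Without the fold limit, 5 of the 8 members were lower and 1 was higher in Sora-Treg cells, while 29.9% of all tested genes were lower and 29.7% higher. Unadjusted p-values were under 0.05 for the same number of members, 6 of 8. DESeq2 also called no member beyond 2-fold. The groups did not overlap for 7 members, and they did not overlap for 63.7% of all tested genes. The median log2 fold change was -0.43 over the members and -0.0035 over all genes tested. With only 8 members, having none beyond 2-fold does not set them apart from all tested genes. More of the 8 pointed down than up. The fold changes of Il1rn, Il18rap, Il1rap and Il18r1 had 6.34%, 8.53%, 9.37% and 9.98% of tested genes below them.

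**Figure D1:**
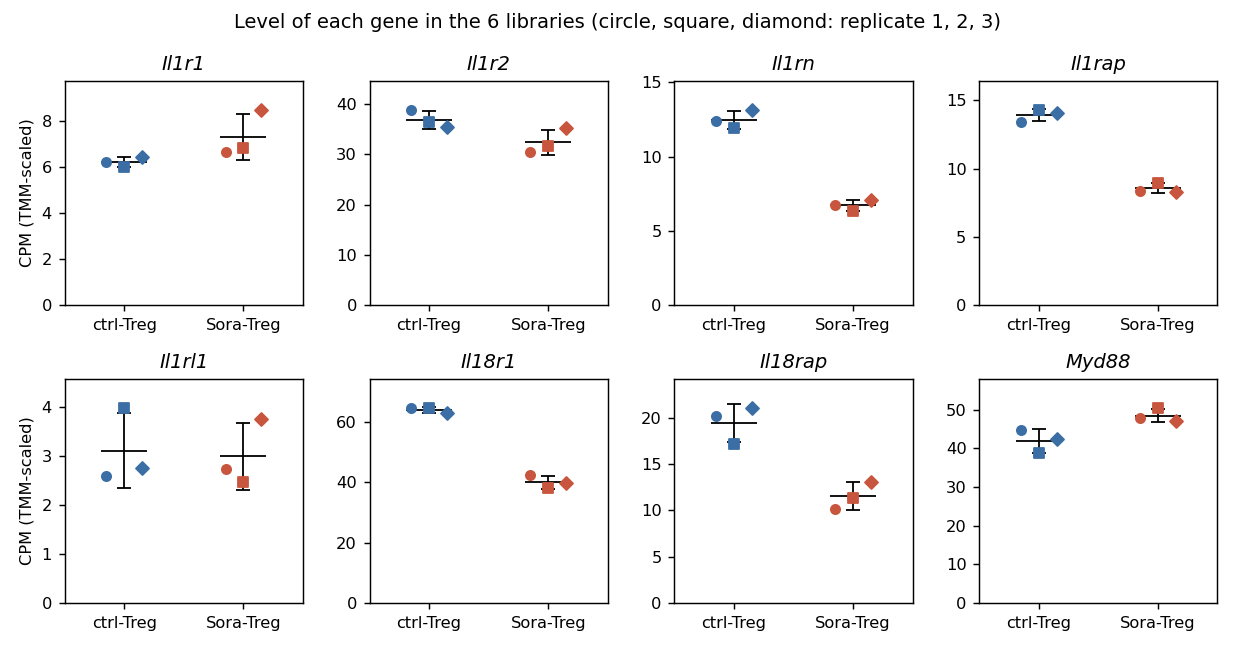
Level of each gene in TMM-scaled CPM (vertical axes, each from 0) in the 3 ctrl-Treg (blue) and 3 Sora-Treg (red) libraries, with black lines for the mean and SD. Il1rn, Il1rap, Il18r1 and Il18rap show clearly separated groups, Il1r1, Il1r2 and Myd88 nearly touch, and Il1rl1 overlaps.

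Of the members that restrain IL-1, Il1rn and Il1r2, the receptor antagonist Il1rn changed more. Its level was 12.4, 11.9 and 13.1 CPM in ctrl-Treg cells and 6.72, 6.34 and 7.08 CPM in Sora-Treg cells. Every Sora-Treg library was below every ctrl-Treg library, and the spread within a group was small beside the gap. The level fell from 12.5 ± 0.614 to 6.71 ± 0.372 CPM (SD, n = 3), 1.86-fold lower, with a log2 fold change of -0.89 ± 0.10 (SE) in edgeR (adjusted p = 5.29e-08). Only 6.34% of tested genes had a more negative fold change. Scaling by library totals alone gave -1.01, just past the 2-fold limit. Macrophages also make this antagonist, and the macrophage marker sum differed between the ctrl-Treg libraries; Il1rn was at 13.1 CPM in replicate 3, where that sum was 26.6 CPM. The part of macrophage RNA in the difference was not tested. With ctrl-Treg replicates 1 and 2 both left out, which keeps a lone control library, the log2 fold change of Il1rn was -0.96.

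The decoy receptor Il1r2 stood at 38.8, 36.4 and 35.4 CPM in ctrl-Treg cells and at 30.4, 31.6 and 35.2 CPM in Sora-Treg cells. The lowest control and the highest Sora value were almost equal. Its mean went from 36.9 ± 1.74 to 32.4 ± 2.46 CPM (SD, n = 3), which is a difference on the log2 scale of -0.19 ± 0.06 (SE) in edgeR (adjusted p = 0.0114). This call depended on single libraries. Without ctrl-Treg replicate 1 the log2 fold change was -0.14 (adjusted p = 0.0789), and without Sora-Treg replicate 1 it was -0.14 (0.0727). Leaving out both ctrl-Treg replicates 1 and 2 keeps a lone control library, and the log2 fold change of Il1r2 was then -0.13. The macrophage sum was 99.4, 99.2 and 26.6 CPM in ctrl-Treg replicates 1 to 3, and its part in the Il1r2 difference was not tested. In bulk RNA, fewer cells of a type and less RNA per cell cannot be told apart.

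The signaling receptor Il1r1 was low, at 6.20, 5.99 and 6.42 CPM in ctrl-Treg cells and 6.66, 6.81 and 8.46 CPM in Sora-Treg cells. The groups did not overlap, and Sora-Treg replicate 3 lay well above the others. The log2 fold change of 0.24 ± 0.12 (SE) did not pass (edgeR adjusted p = 0.0959), and it was 0.12 without that library. Over all alternatives it stayed between 0.06 and 0.31, and it passed in none of them.

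The accessory chain Il1rap, which the IL-1 and IL-33 receptors share, was lower after Sora. It measured 13.4, 14.3 and 14.1 CPM in ctrl-Treg cells against 8.37, 8.97 and 8.32 CPM in Sora-Treg cells. No library of either group came near the other group. The mean fell from 13.9 ± 0.464 to 8.55 ± 0.364 CPM (SD, n = 3), 1.63-fold lower, with a log2 fold change of -0.70 ± 0.09 (SE) in edgeR (adjusted p = 4.86e-07). Because its level per length is about 1 FPKM or less, log2(FPKM + 1) gave a smaller value of -0.37, and the call was kept.

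Il1rl1, the gene of the IL-33 receptor ST2, was the lowest member and did not differ detectably. Its level was 2.59, 3.98 and 2.76 CPM in ctrl-Treg cells and 2.74, 2.48 and 3.76 CPM in Sora-Treg cells, from 79 to 145 counts per library. The highest library of each group stood apart from the other 2, and the groups overlapped throughout. The log2 fold change was -0.05 ± 0.21 (SE) in edgeR (adjusted p = 0.852), and its sign turned when ctrl-Treg replicate 2 was left out (0.17). The membrane and soluble forms of ST2 were not separated in these counts, which have 1 row per gene.

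Both chains of the IL-18 receptor fell together. Il18r1, the binding chain, had 64.6, 64.5 and 63.0 CPM in ctrl-Treg cells and 42.3, 38.1 and 39.8 CPM in Sora-Treg cells. The control libraries were nearly identical, and all 3 Sora-Treg libraries lay far below them. Its mean went from 64.0 ± 0.922 to 40.1 ± 2.14 CPM (SD, n = 3), 1.60-fold lower, with a log2 fold change of -0.68 ± 0.05 (SE) in edgeR (adjusted p = 2.21e-11). Il18rap, the second chain, had 20.2, 17.2 and 21.1 CPM in ctrl-Treg cells and 10.2, 11.4 and 13.1 CPM in Sora-Treg cells. It varied more within the groups than Il18r1, with no overlap between them. Its mean went from 19.5 ± 2.04 to 11.5 ± 1.49 CPM (SD, n = 3), 1.68-fold lower, with a log2 fold change of -0.75 ± 0.10 (SE) in edgeR (adjusted p = 5.73e-07). Both calls were kept under all 18 alternatives, with log2 fold changes from -0.79 to -0.64 for Il18r1 and from -0.86 to -0.65 for Il18rap. The fold changes of Il1rap, Il18rap and Il18r1 had 9.37%, 8.53% and 9.98% of tested genes below them.

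Myd88, the adaptor common to the signaling receptor pairs, was the only member that was higher by adjusted p, at less than 2-fold. It measured 44.7, 38.7 and 42.4 CPM in ctrl-Treg cells and 47.8, 50.5 and 47.1 CPM in Sora-Treg cells. The log2 fold change was 0.21 ± 0.05 (SE) in edgeR (adjusted p = 0.00197). The call was lost under scaling by library totals (0.09, with an adjusted p of 0.139), a scaling that shifted the median of all genes by -0.12, so the rise of Myd88 holds only relative to the typical gene.

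**Figure D2:**
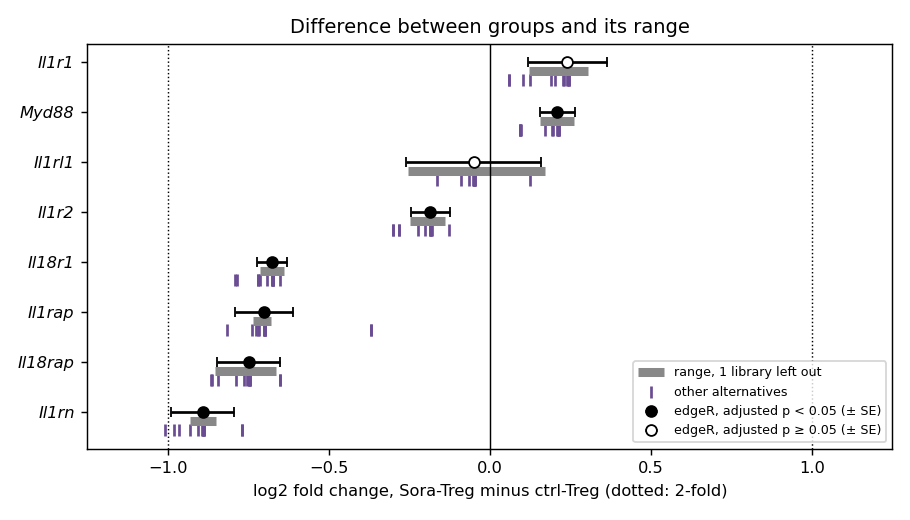
Log2 fold change of each gene (horizontal axis, Sora-Treg minus ctrl-Treg) with its SE, beside the range when 1 library is left out (grey bars) and the values under the other alternatives (purple ticks). Il1rn, Il18rap, Il1rap and Il18r1 stay below 0 throughout, while the range of Il1rl1 spans 0.

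To compare the genes with one another, levels per length were taken from the FPKM values (fragments relative to the gene's length and to the library total). The single length implied for each gene ran from 1937 bases for Myd88 to 13345 for Il1rap. The order of the genes depends on these lengths. In ctrl-Treg cells Myd88 was highest at 22.5 ± 1.69 FPKM, followed by Il1r2 at 14.3 ± 0.714, Il18r1 at 13.1 ± 0.205, Il1rn at 4.63 ± 0.231 and Il18rap at 4.05 ± 0.431 FPKM (SD, n = 3). Il1rap at 1.08 ± 0.0328, Il1r1 at 1.05 ± 0.0373 and Il1rl1 at 0.434 ± 0.105 FPKM came last. In this order the lowest Il1rn library (4.40) nearly met the highest Il18rap library (4.38), and Il1rap and Il1r1 did not differ beyond their spread. In Sora-Treg cells the order was Myd88 (24.04 ± 0.847), Il1r2 (11.6 ± 0.874), Il18r1 (7.55 ± 0.418), Il1rn (2.30 ± 0.128), Il18rap (2.22 ± 0.285), Il1r1 (1.14 ± 0.155), Il1rap (0.615 ± 0.0255) and Il1rl1 (0.385 ± 0.0876 FPKM). Il1rn and Il18rap overlapped there, and Il1r1 was now above Il1rap in every library. The decoy was thus far more abundant per length than the signaling IL-1 receptor in all 6 libraries.

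Ratios within a library do not depend on the scaling between libraries. Their size depends on the length used for each gene, but their log2 difference between the groups does not. The ratio of decoy to signaling receptor, Il1r2 over Il1r1, was 14.3, 13.9 and 12.6 in ctrl-Treg and 10.5, 10.6 and 9.53 in Sora-Treg libraries. The ratio of antagonist to signaling receptor, Il1rn over Il1r1, was 4.39, 4.35 and 4.47 in ctrl-Treg and 2.21, 2.04 and 1.83 in Sora-Treg libraries. Both ratios were lower in every Sora-Treg library, by log2 differences of -0.42 and -1.12. For each, the exact two-sided permutation test gave p = 0.1, the smallest value that 3 against 3 allows, and 0.2 after adjustment over 4 ratios. The IL-33 receptor relative to its accessory chain, Il1rl1 over Il1rap, was 0.346, 0.49998 and 0.350 against 0.585, 0.494 and 0.810, overlapping between the groups (log2 difference 0.65, exact permutation p = 0.2). The 2 chains of the IL-18 receptor, Il18r1 over Il18rap, had ratios of 3.14, 3.68 and 2.93 against 4.09, 3.29 and 2.98, with a log2 difference of 0.08 (exact permutation p = 0.6) that went from -0.05 to 0.18 as single libraries were left out. These are ratios of RNA and not of receptor protein.

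**Figure D3:**
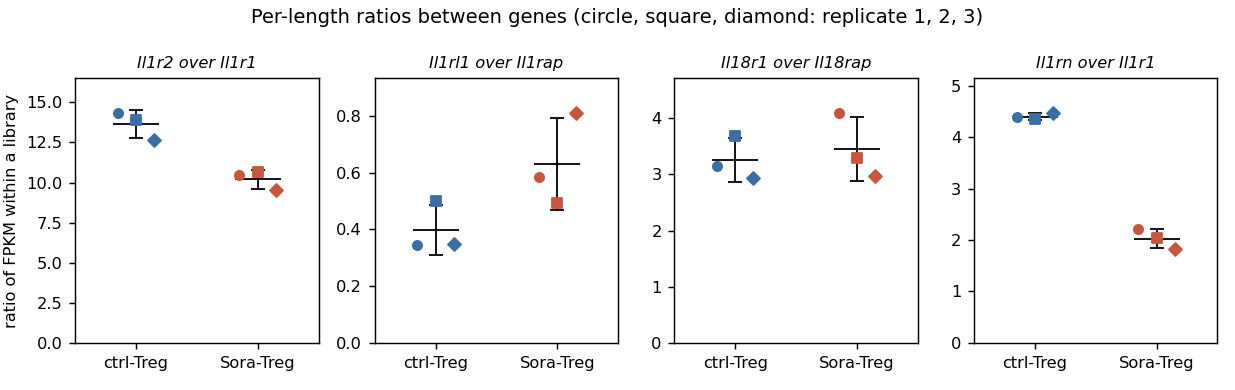
Ratio of FPKM between 2 genes within each library (vertical axes, each from 0) for ctrl-Treg (blue) and Sora-Treg (red), with mean and SD in black. Il1r2 over Il1r1 and Il1rn over Il1r1 are lower in all 3 Sora-Treg libraries, whereas Il18r1 over Il18rap overlaps.

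On chromosome 1, 5 of the 8 genes lie next to one another in the order Il1r2, Il1r1, Il1rl1, Il18r1 and Il18rap, with Il1rl2, the IL-36 receptor, between Il1r1 and Il1rl1. Of its 6 protein-coding genes, 4 fell and 0 rose by adjusted p in edgeR, with 0 higher also at an unadjusted p under 0.05 and by DESeq2, against the 29.9% lower and 29.7% higher among all tested genes. The 4 include Il1r2, and the count was 3 without ctrl-Treg replicate 1 or without Sora-Treg replicate 1. Il1rl2 fell most, from 7.54, 8.02 and 7.67 CPM to 2.67, 2.45 and 2.58 CPM. That is 3.02-fold lower, with a log2 fold change of -1.59 ± 0.14 (SE) in edgeR (adjusted p = 8.67e-10), and it lies directly between Il1r1 and Il1rl1, whose tests did not pass. Of the 6 nearest protein-coding genes outside the cluster, 3 were tested. Map4k4, next to Il1r2, had a log2 fold change of 0.12 ± 0.03 (adjusted p = 5.01e-04), Slc9a2 beyond Il18rap had -1.02 ± 0.32 (0.00956) on at most 62 counts, and Mfsd9 had 0.13 ± 0.23 (0.632). By the same annotation 133 bases separate the end of Il1rl1 from the start of Il18r1. The noncoding gene Gm16894 overlaps Il1r2 by 1160 bases and had 8 to 31 counts, and Gm20319 overlaps Il1rap and had at most 2 counts. The other 6 members overlap no annotated gene.

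**Figure D4:**
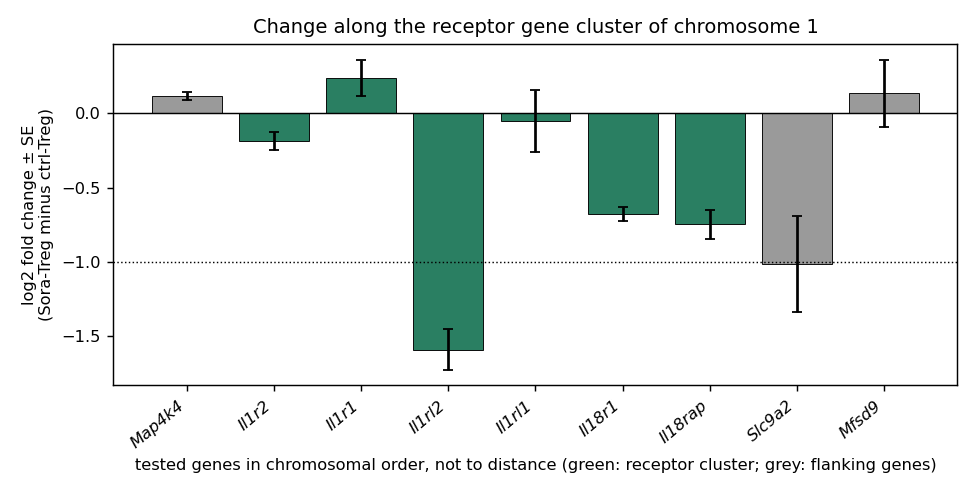
Log2 fold change (bars from 0, with SE) of the tested genes along chromosome 1, in their order and not to distance. In the cluster (green), Il1rl2, Il18r1 and Il18rap lie below -0.6, while Il1r1 (0.24) and Il1rl1 (-0.05) lie closer to 0.

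The other genes of the pathway were counted in 8 lists. The share to set beside each count is that of all tested genes, 29.7% higher and 29.9% lower by adjusted p at any fold. The ligands were scarce in these cells. Of 4 ligand genes in the table, Il1a and Il18 stayed below the filter with at most 10 counts, Il1b had 48, 23 and 9 counts against 4, 4 and 5, and Il33 had 6, 0 and 7 against 15, 12 and 24. The log2 fold change was -2.41 ± 0.57 for Il1b (SE) in edgeR (adjusted p = 8.75e-04) and 2.06 ± 0.63 for Il33 (0.00703). Among the controls, replicate 3 had both the fewest Il1b counts (9) and the lowest macrophage sum. Replicates 1 and 2 differed in Il1b (48 against 23 counts), although their macrophage sums were nearly equal (99.4 against 99.2 CPM). The part of macrophage RNA in the Il1b difference was not tested. Il1b no longer passed the filter on low counts without ctrl-Treg replicate 1 or replicate 2. The Il33 change fell to 1.22 without both, a fit that keeps a lone control library.

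Other receptors and inhibitors of the family moved in both directions, with 1 higher and 2 lower among 3 tested. Sigirr, an inhibitory receptor of the family, was the most abundant, at 117, 125 and 118 CPM in ctrl-Treg and 193, 187 and 197 CPM in Sora-Treg cells. It rose by a log2 fold change of 0.68 ± 0.03 (SE) in edgeR (adjusted p = 7.88e-14), and per length it stood at 49.97 ± 1.65 and 73.9 ± 1.97 FPKM, above all 8 members in both groups. Il18bp, the secreted IL-18 binding protein, had -0.54 ± 0.19 (adjusted p = 0.0173), a call lost without ctrl-Treg replicate 1 (-0.50, 0.0639), ctrl-Treg replicate 3 (-0.47, 0.0710) or Sora-Treg replicate 1 (-0.41, 0.0811).

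Below Myd88, 6 of 18 tested transducers were higher and 8 lower, with a median log2 fold change of -0.01, and under scaling by library totals the split was 3 higher and 9 lower. Irak3, the inhibitory IRAK, fell from 2.92, 3.57 and 2.51 CPM to 0.791, 1.10 and 0.871 CPM, a log2 fold change of -1.70 ± 0.26 (SE) in edgeR (adjusted p = 4.67e-06). Irak2 rose by 0.49 ± 0.05, the ubiquitin ligase Peli1 by 0.40 ± 0.05 and the ubiquitin-conjugating cofactor Ube2v1 by 0.31 ± 0.04. Of 6 tested genes that process IL-1 and IL-18, 4 were lower and 0 higher by edgeR, with the same counts at an unadjusted p under 0.05 and by DESeq2. Casp1, the protease that matures both cytokines, fell from 4.40 ± 0.661 to 2.18 ± 0.566 CPM (SD, n = 3). Its log2 fold change was -1.02 ± 0.20 (SE) in edgeR (adjusted p = 1.35e-04). The inflammasome adaptor Pycard fell by 0.49 on the log2 scale. Casp4 and Aim2 had log2 fold changes of -0.59 ± 0.11 and -0.31 ± 0.06 (SE).

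Toll-like receptors also signal through Myd88. Of 9 tested receptors and adaptors of that list, 3 were higher and 2 lower, while 5 of 14 in the table were below the filter. Its adaptors had the largest changes in either direction. Tirap, which bridges some receptors to MyD88, rose from 1.57, 1.02 and 1.57 CPM to 8.70, 8.41 and 8.77 CPM, 6.22-fold (log2 2.64 ± 0.17, SE) in edgeR (adjusted p = 3.90e-12). Ticam2, a bridging adaptor of the MyD88-independent route, fell from 8.20, 7.01 and 8.74 CPM to 1.68, 2.01 and 1.24 CPM, 4.88-fold (log2 -2.29 ± 0.17, adjusted p = 8.74e-11). Tlr6 and Ticam1 rose by 0.80 ± 0.16 and 0.49 ± 0.07. Myd88 itself moved little while the adaptors beside it moved strongly and in opposite directions.

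Of 13 genes known from ST2-positive Treg cells of tissues, 8 were higher and 3 lower, against 29.7% and 29.9% of all tested genes. Under scaling by library totals the split was 8 and 5. The median log2 fold change was 0.46 against -0.0035 over all genes, while Il1rl1 itself did not pass the test. Tnfrsf9, Nfil3 and Pparg rose by 2.24 ± 0.02, 1.74 ± 0.04 and 1.10 ± 0.15 on the log2 scale (SE), and Il10, which the study had already named from these libraries, by 3.07 ± 0.10. Klrg1 was called on at most 53 counts, and the call was lost without ctrl-Treg replicate 1 (0.90, adjusted p = 0.0889), ctrl-Treg replicate 3 (0.81, 0.0928) or Sora-Treg replicate 3 (0.91, 0.0953). Areg, a repair factor of these cells, fell (-1.79 ± 0.39, edgeR adjusted p = 4.57e-04). Ccr8 (-0.46 ± 0.04, adjusted p = 5.46e-09) and Batf (-0.37 ± 0.05, 7.19e-07) were also lower in edgeR. Gata3, the transcription factor linked to Il1rl1, was at 73.4 ± 1.31 and 71.2 ± 3.32 CPM (SD, n = 3, adjusted p = 0.375). Of 10 transcription factors tied to these receptors, 5 were higher and 3 lower (4 and 5 under scaling by library totals). The smallest adjusted p belonged to Stat3 (0.78 ± 0.02), Irf4 (0.57 ± 0.02), Stat5a (-0.55 ± 0.03) and Rora (0.43 ± 0.05). Gata3, Rora, Irf4 and Batf belong to both this list and the tissue Treg list and are counted in each.

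Of 11 NF-κB feedback genes, 4 were higher and 6 lower, with a median log2 fold change of -0.12, and under scaling by library totals 2 were higher and 7 lower. Nfkb2, a precursor subunit, fell from 579.9 ± 1.33 to 274 ± 2.74 CPM (log2 -1.08 ± 0.03, SE) in edgeR (adjusted p = 6.72e-20), and the inhibitors Nfkbie and Nfkbia fell by 0.84 and 0.48 on the log2 scale. Nfkbiz, a nuclear IκB protein known to be induced by IL-1, rose by 0.54 ± 0.04. By adjusted p at any fold, the processing list was the only one of the 8 whose passing genes all moved one way.

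**Figure D5:**
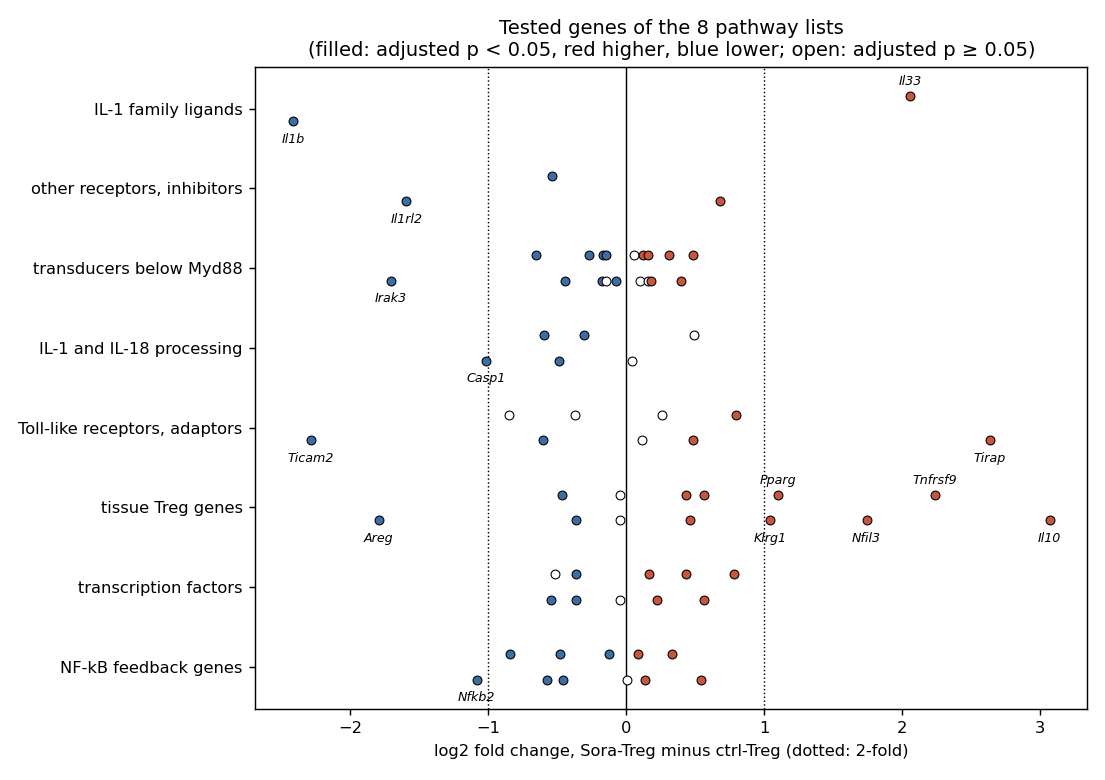
Log2 fold change (horizontal axis, Sora-Treg minus ctrl-Treg) of every tested gene in the 8 lists, with called genes beyond 2-fold named. Filled points passed an adjusted p of 0.05 (red higher, blue lower), and Tirap and Ticam2 stand at opposite ends of their list.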

How the data were processed

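Per the labels, RNA of 3 control and 3 sorafenib Treg libraries was sequenced after preparation with a VAHTS kit. Raw counts, with genes named by symbol, and FPKM values of the same genes were deposited. The methods name Bowtie2 and GRCm38, whereas the submitters' processing notes name fastp, HISAT2, HTSeq, R 3.2.0, DESeq2 and GRCm39; strand setting and annotation release are not given in the sources used here. The deposited FPKM equalled counts over a single length per gene and the library total (largest relative difference in implied length 1.64e-06), so it is no second measurement. Gene order and overlaps come from RefSeq on GRCm38.p6, where 97.5% of symbols were found.

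Counts were tested with edgeR 4.0.16 (R 4.3.3): quasi-likelihood test, TMM scaling, filterByExpr, no covariate, Benjamini-Hochberg adjustment over 13463 genes, with a threshold on the adjusted p of 0.05, applied at any fold and together with a 2-fold limit (named wherever it was used). The SE is the one implied by the F statistic. Fits were tested on simulated data. Ratios of FPKM were compared with exact permutation tests (scipy 1.17.1). Alternatives were other scalings and filters, DESeq2 1.42.0, robust fitting, a replicate block, each library left out, and limma 3.58.1 on log2(FPKM + 1) or log2(FPKM + 0.1). Leaving out ctrl-Treg replicates 1 and 2 together was chosen after seeing the data and assumes that the lone control varies like the other group.

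Members and lists were chosen with earlier results of these data known, so no p is adjusted over a list. Named genes are the members, list genes called beyond 2-fold and the 4 with the smallest adjusted p per list. Slc9a2, Map4k4 and Mfsd9 are named by position, and Gata3, Ccr8, Batf and the markers were named after their values were seen. Genes of the lists outside the count table were not analysed here. Libraries of a group differed by more than sampling noise (chi-square per degree of freedom 3.36 to 5.91). Same-numbered libraries did not deviate together (correlations -0.0436, 0.0498 and 0.0233).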

Additional observations from a re-analysis of the deposited data

How the results depend on the processing

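No member was called beyond 2-fold under any alternative except with libraries scaled by their totals, where 1 member, Il1rn, was lower. At any fold, the count of higher members, 1 in the report, was 0 under scaling by library totals and 0 in all 3 limma fits on FPKM, which also divide by totals; that scaling shifts the median of all genes by -0.12. With a library left out, 4 to 5 members were lower and 1 was higher, and 3 to 4 of the 6 cluster genes were lower and 0 higher. Log2 changes of ratios then ranged from -0.47 to -0.37 for Il1r2 over Il1r1, -1.19 to -1.05 for Il1rn over Il1r1, 0.45 to 0.82 for Il1rl1 over Il1rap and -0.05 to 0.18 for Il18r1 over Il18rap, whose sign thus turned. Il1rl1 ranged from -0.25 to 0.17 as libraries were left out: it turned to 0.17 without ctrl-Treg replicate 2, 0.01 without Sora-Treg replicate 1, 0.07 without Sora-Treg replicate 2 and 0.12 without ctrl-Treg replicates 1 and 2; the cause was not tested. The call of Il1r2 was lost in 3 fits, 1 of them with a lone control library, and that of Myd88 in 4. Il1rn, Il1rap, Il18r1 and Il18rap kept direction and call in all 18. With the replicate block 5 members were lower and 1 higher, and the block changed no call of a member or of a list gene named by the rule. Among the lists it left 1 instead of 2 genes of the Toll-like receptor list lower and 4 instead of 3 higher. It also left 5 instead of 6 transducers higher. Il1rl1 could not be tested in 2 of the limma fits, whose filter on FPKM it did not pass. At 79 to 145 counts per library, the SE of its log2 fold change, 0.21, is the limit on what could be seen.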

Other observations

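By the fixed rule, genes with the most similar profile were to be named only for members called beyond 2-fold, of which there were none. For the 4 members that fell by at least 1.60-fold they are given here, a choice made after the values were seen. Likeness was the root mean square difference of log2 CPM, centred on each gene's mean, over 6 libraries that fall into 2 groups, so it mostly reflects a step of equal size between the groups. The nearest genes were Ifrd2 (0.0147), Trim37 (0.0158) and Birc5 (0.0299) for Il18r1, Ccng1 (0.0198), Rap2b (0.0199) and Ms4a4b (0.0210) for Il1rap, Kif20a (0.0216), Rims3 (0.0340) and Tox (0.0373) for Il1rn, and Nfatc2ip (0.0831), Bub1b (0.0833) and Kif15 (0.0852) for Il18rap. By level, Il18r1, Myd88 and Il1r2 exceeded 69.9%, 66.3% and 59.7% of tested genes in mean log2 CPM, and Il1rl1 exceeded 22.5%.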
